A study of Mus musculus with 768 samples.

Results

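The genes described here are the cytosolic ribosomal protein genes of mouse cochlear organoid cells. They were chosen by name: every Ensembl gene whose symbol starts with Rpl or Rps and a number, together with Rplp0, Rplp1, Rplp2 and Rpsa, without the S6 kinase genes (Rps6k) and without symbols marked as pseudogenes by -ps. This gave 92 of 52636 listed genes. The rule uses names and no measured value, but it was proposed with earlier results of these data known. The series holds single cells of organoids grown from greater epithelial ridge cells, an epithelium of the cochlear floor next to the inner hair cells, of mice on postnatal day 2. The mice carried Sox2-GFP, Fgfr3-CreERT2 and the Cre reporter Ai14-tdTomato, so that Cre activity was limited to cells using the Fgfr3 promoter and needed an inducer. The cells were enriched by flow cytometry and grown in one medium with EGF, FGF2, IGF1, CHIR99021 (an inhibitor of GSK3), valproic acid, a phosphorylated ascorbic acid and an inhibitor of the TGFβ receptor, with N-2 and B-27 supplements. Organoids were taken apart after 1, 3 or 7 days, and each cell was picked by hand for a full-length SmartSeq2 library. All groups share the genotype and the medium, so that the groups differ by the label in culture time alone and none is an untreated control.

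A ribosome is built from a small (40S) and a large (60S) subunit, each a set of proteins on ribosomal RNA, and most of the proteins are present in a single copy per subunit. Growing cells spend much of their transcription and translation on ribosomes, and the output is tied to growth signals: the kinase mTOR and the factor Larp1 control the translation of ribosomal protein mRNAs through a run of pyrimidines at their 5′ end, the terminal oligopyrimidine (TOP) tract, while Myc proteins promote transcription of ribosome genes. Insulin-like growth factor and other growth factors of the kind used in this medium act on these pathways. Unassembled Rpl5 and Rpl11 bind Mdm2 and so link ribosome assembly to p53.

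A filter on depth, detected genes and mitochondrial reads removed 57 cells and retained 53, 86 and 43 cells in the 3 cultures of day 1, 85, 70 and 73 in the 3 of day 3 and 39, 37, 72, 78 and 75 in the 5 of day 7. The culture is the replicate number of the label. The labels do not say that cultures came from separate animals, so the spread between cultures may be in part technical. Summed over its cells, a culture had between 26391412 and 72483565 reads on genes, and the median cell had 798924 reads. The cells were deposited in 2 files. The first holds culture 1 of day 1, culture 1 of day 3 and cultures 1 to 4 of day 7, and the second holds the other 5 cultures, so that file and day overlap in part. All 9 cochlear epithelium markers (among them Epcam, Sox2 and Lgr5) had reads on each day. Their summed level was 11331 to 15936 CPM (reads of a gene scaled to a common library total of 1e6, with TMM factors between cultures) on day 1, 5218 to 8810.4 on day 3 and 2988 to 4924 on day 7. The largest part of the day 1 sum was Tectb, with 6628 to 11411 CPM. Tectb had 1593 to 5708 CPM on day 3 and 360.4 to 1341 CPM on day 7. Sox2 had 17.04 to 19.86 CPM on day 1 and 6.81 to 14.25 CPM on day 7. Of the 9 markers 2 had a higher fitted level on day 7 than on day 1. The 5 mesenchyme markers summed to 186.3 to 1059 CPM in any day 7 culture and to 503.7 to 807 CPM before, with Col3a1 at 0 on days 1 and 7. Nearly all of this sum was Dcn, with 185.3 to 1058 CPM on day 7 and 498.4 to 806.7 CPM before. Col1a1 reached at most 2.12 CPM and Col1a2 at most 17.98 CPM. The 5 hair cell markers reached at most 89.5 CPM (day 3), the 4 glial markers 88.03 CPM, the 4 immune markers 7.40 CPM and the 3 blood markers 0.627 CPM. Most of the glial maximum was Sox10, with 71.7 CPM.

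Of the 92 genes, 37 carry a small-subunit and 54 a large-subunit symbol, and 1, Rps19bp1, codes for a protein that binds Rps19 and is no part of the ribosome. In the GENCODE M21 annotation 6 of them are pseudogenes (Rps3a2, Rps3a3, Rps4l, Rps12l1, Rpl6l and Rpl37rt). The set is close to a housekeeping set in these cells: 77 members had a read in at least 99% of the retained cells, and 73 had a mean level above 100 CPM. Per kilobase of transcript the median level was 363.5 CPM, with the highest levels for Rpl13 (1375 CPM per kb), Rpl41 (1278) and Rps19 (1144). Rpl13 and Rpl41 belong to the large subunit, and Rps19 is a small-subunit protein known from inherited anemia. Rps27rt, a copy of Rps27 without introns, had the lowest level of the tested members with a transcript length, with 9.08 CPM per kb, followed by Rpl29 (11.3) and Rps19bp1 (17.95). The remaining 3 members were too low to test. Rpl3l, the striated-muscle relative of Rpl3, and Rpl10l, the testis relative of Rpl10, had no read in any cell, and Rpl39l had 36 reads in 2 cells. Their partners were high, with 1159.6 CPM for Rpl3, 786 for Rpl10 and 100.7 for Rpl39. Rpl3l and Rpl10l were therefore not detectable at this depth. The reads of Rpl39l were confined to day 3, with 0.0157 CPM in culture 1 and 0.68 CPM in culture 3.

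Most ribosomal protein genes have processed pseudogenes of nearly the same sequence, and reads from the gene and its copies can be exchanged. By alignment of transcripts, 996 annotated pseudogenes with at least 90% identity were matched to 75 members. These copies held 1789672 reads against 16162489 on the members, which is 9.97% of both together. The share was under 5% for 79 members and over 20% for 8. For Rps2, a core small-subunit protein, 95.99% of the reads were assigned to its 58 copies, and the copy Rps2-ps10 alone held 862686 reads against 36348 on Rps2. For Rpl29 the copies held 95.1%, for Rpl34 58.5%, for Rpl35a 42.8%, for Rpl5 39.6%, for Rpl30 38.7%, for Rps7 33.8% and for Rpl3 23.1%. The levels of these 8 genes are thus uncertain, and the low place of Rpl29 in the order above is one of them. Values that are not whole numbers, as reads divided between genes give, made up 54.9% of the member values above 0 and 10.6% of the values of all genes.

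The promoter sequences bear on whether the members share the pyrimidine run from which TOP mRNAs take their name. RefSeq start sites (GRCm38.p6) were at hand for 66 of the 91 ribosomal protein symbols, with 78 starts in all. A run of at least 8 bases of C or T, without A or G, lay within 30 bases before to 15 bases after the start in 33 of the 78 starts (42.3%), against 18.7% of the 32851 starts in the whole table. The starts are annotated and not measured, and the run could lie anywhere in the window. The share of members with a TOP tract can therefore not be read from this value. The 6 members shown are among those that the comparisons below turn on and that have a RefSeq start. Each line gives the 45 bases from 30 before to 15 after the start, 5′ to 3′ on the strand of the gene, with the longest pyrimidine run in capitals (in Rps27l, the first of 2 runs of equal length):
Rpl4: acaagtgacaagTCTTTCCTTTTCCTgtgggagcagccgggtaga
Rps6: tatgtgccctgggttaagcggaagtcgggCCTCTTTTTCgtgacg
Rpl38: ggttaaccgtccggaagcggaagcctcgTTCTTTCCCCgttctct
Rps27: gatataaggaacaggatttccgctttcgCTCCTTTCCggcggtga
Rps27l: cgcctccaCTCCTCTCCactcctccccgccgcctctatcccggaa
Rpl7l1: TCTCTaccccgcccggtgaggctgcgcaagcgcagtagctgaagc
These windows are chr9:64173357-64173401 (plus strand), chr4:86857353-86857397 (minus), chr11:114668550-114668594 (plus), chr3:90213634-90213678 (minus), chr9:66946056-66946100 (plus) and chr17:46782642-46782686 (minus).

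In Rps6, Rpl38 and Rps27, the run of 10, 10 and 9 bases overlapped the annotated start. In Rpl4 a run of 14 bases lay just before the annotated start, and the start of the gene in the GENCODE annotation lies inside this run. In Rps27l both runs of 9 bases lay before the start. This gene has a further RefSeq start, not shown, with a longest run of 5 bases, and the start with the longer run was the one shown. Rpl7l1, a relative of Rpl7, had no run longer than 5 bases in this window. Over the 300 bases from 250 before to 50 after a start, on either strand, CCGGAA (the core bound by Ets-family factors such as GABP) was present in 47.4% of the member starts and 14.9% of all starts. AAGATGGC (the core of the YY1 site) was present in 10.3% and 2.75%, GGGCGG (the core of the Sp1 site) in 58.97% and 35.7%, and TATAAA in 8.97% and 13.6%. A match is a description of the letters and no evidence of binding.

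The first question was how much of the transcriptome the set takes up on each day. On day 1 the 92 genes took 2.11, 2.75 and 2.54% of the reads in the 3 cultures (mean 2.47% ± 0.323, SD, n = 3). On day 3 the share was 2.46, 3.66 and 3.09% (3.07% ± 0.604, n = 3). On day 7 it was 2.90, 3.16, 2.68, 2.75 and 3.69% (3.03% ± 0.409, n = 5). The ranges of the 3 days overlapped, with day 3 culture 1 below 2 of the day 1 cultures. The shares also differed between the files: in the first file the values were 2.11% for the 1 culture of day 1, 2.46% for the 1 culture of day 3 and a mean of 2.87% for the 4 cultures of day 7, and in the second file 2.65% (2 cultures), 3.38% (2 cultures) and 3.69% (1 culture). Within each file the order of the days was thus the same, and day 3 was below day 7. In the second file the 1 day 7 culture (3.69%) lay only just above day 3 culture 2 (3.66%). The median log2 fold change of single members from day 3 to day 7 was -0.15 there. Cycling cells, defined further on, made up 15.3% to 23.7% of the day 1 cultures, 52.8% to 63.6% of the day 3 cultures and 25.3% to 86.96% of the day 7 cultures, and the part of this in the share was not tested. In a sum over cells, a larger share of cells rich in these mRNAs and more mRNA in each cell cannot be told apart. The median share over single cells, thinned to a common depth, was 2.07, 2.33 and 2.37% in the day 1 cultures. It was 2.39, 3.44 and 3.12% on day 3 and 2.84, 3.19, 2.69, 2.72 and 3.56% on day 7. By this median every culture of days 3 and 7 lay above every day 1 culture, though day 3 culture 1 only just. The part of cells rich in these mRNAs in the summed shares was not tested. No test was made of the share, because the genes were chosen with earlier results of these data known.

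**Figure D1:**
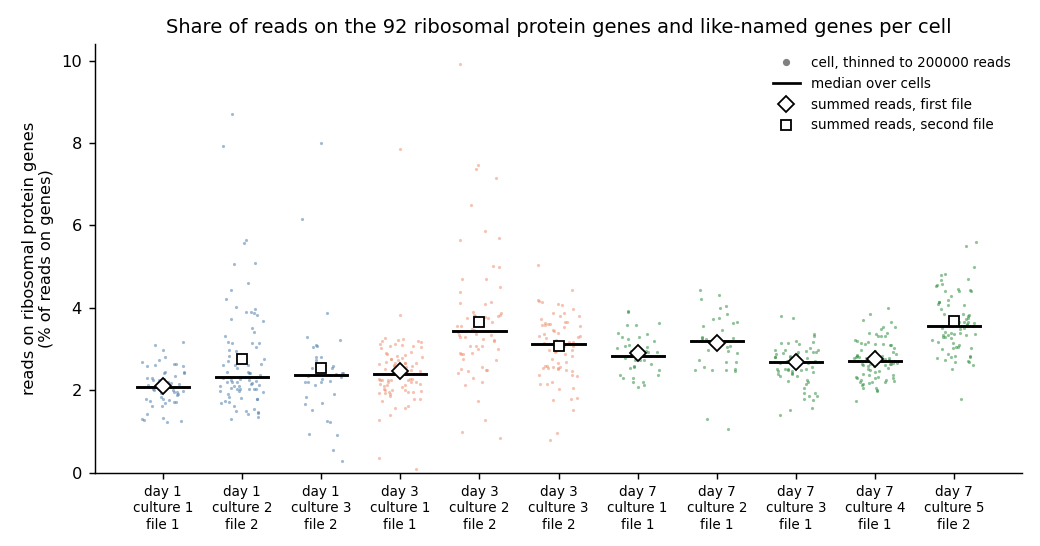
Share of reads on the 92 genes in percent (vertical axis) for each retained cell with at least 200000 reads, thinned to that depth, by culture (horizontal axis, with the file). Black lines are medians over cells and open symbols the share of the summed reads. By the summed reads, day 1 cultures lie between 2.11% and 2.75% and day 7 cultures between 2.68% and 3.69%. The second-file cultures lie above the first-file culture of the same day on each day.

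Day 3 was compared with day 1 to ask whether the genes change as organoids begin to grow. Of the 89 tested members 85 had a higher fitted level on day 3 (51.04% of all genes did), with a median log2 fold change of 0.27 against 0.02 over all 17466 genes tested. None passed the test (edgeR quasi-likelihood F-test, Benjamini-Hochberg adjustment, threshold 0.05), where 0.0115% of all genes did. At an unadjusted p under 0.05 there were 8 members of 89, all higher, a share close to the 9.26% of all genes, and DESeq2 and limma also called none. The 37 small-subunit and 51 large-subunit members had medians of 0.26 and 0.27. In 6 members every day 3 culture lay above every day 1 culture and in none below, against 9.88% of all genes above and 8.11% below. Rpl4 and Rpl7l1 had the smallest p. The log2 fold change was 0.71 for Rpl4 (SE 0.20, adjusted p = 0.269) and 0.62 for Rpl7l1 (SE 0.20, adjusted p = 0.351). In the first file alone, with 1 culture on each of these days, the median was 0.11, and in the second file alone it was 0.32.

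By day 7 a small number of large-subunit genes had risen against day 1. Rpl4, which codes for one of the large proteins lining the exit tunnel of the ribosome (chr9:64173375-64178666, plus strand, GRCm38), had 843, 1058 and 907 CPM in the day 1 cultures, 1321, 1773 and 1497 CPM in the day 3 cultures and 1632, 1810.0, 1401, 1389 and 2125 CPM in the day 7 cultures. Every culture of days 3 and 7 lay above every culture of day 1, and days 3 and 7 overlapped. Rpl4 was 1.79-fold higher on day 7 than on day 1 (log2 fold change 0.84, SE 0.18, adjusted p = 0.0189, edgeR).

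Rpl7l1, a relative of Rpl7 linked to assembly of the large subunit, had 100.7, 105.2 and 104.6 CPM on day 1, 171.1, 185.8 and 119.7 CPM on day 3 and 145.2, 184.1, 201.1, 180.3 and 159.7 CPM on day 7. The day 1 cultures lay within 5 CPM of each other, and all later cultures lay above them. The rise by day 7 was 1.68-fold (log2 fold change 0.75, SE 0.18, adjusted p = 0.0283, edgeR). With the replicate number as a block it missed the threshold at a like size (log2 fold change 0.77, adjusted p = 0.0678).

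Of the 89 members 3 were called on day 7 against day 1, all higher and Rpl4 and Rpl7l1 among them. Over all genes 7.11% were called and 3.55% were called higher, so that the share of members called is close to the background. In 10 members all day 7 cultures lay above all day 1 cultures and in none below, against 8.71% of all genes above and 9.06% below. Over the members the median log2 fold change was 0.10 (all genes 0.00), and 61 of 89 were higher. The small and large subunits had medians of 0.10 and 0.10. Beside these values, 5 of the 9 cochlear epithelium markers and 1 of the 3 tested mesenchyme markers fell on day 7, and their part in the member values was not tested. Over the 23 alternatives the adjusted p ranged from 0.00164 to 0.2 for Rpl4 and from 0.00512 to 0.44 for Rpl7l1, with calls in 19 and 12 of them and the same direction in each. The count rested on single cultures: it was 0 without day 1 culture 1 or without day 1 culture 3, 1 without day 1 culture 2 or without day 7 culture 2, 3 or 4, and 0 in either file alone. Without day 1 culture 1, the only day 1 culture of the first file, the median turned to -0.10.

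With the file as a covariate the picture was wider. Then 10 members were called higher, against 2.73% of all genes, and the median log2 fold change was 0.32. Among them were Rpl4, Rpl3, Rpl10, Rpl13, Rplp0, Rps3, Rps3a1, Rps6 and Rpsa, with log2 fold changes from 0.50 (Rps3) to 0.98 (Rpl4), and Rpl7l1 missed the threshold with a fold about as large (log2 fold change 0.71, adjusted p = 0.053). These genes include Rplp0, the base of the stalk that recruits elongation factors, Rps6, the substrate of the S6 kinases, and Rpsa, also known as the laminin receptor.

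**Figure D2:**
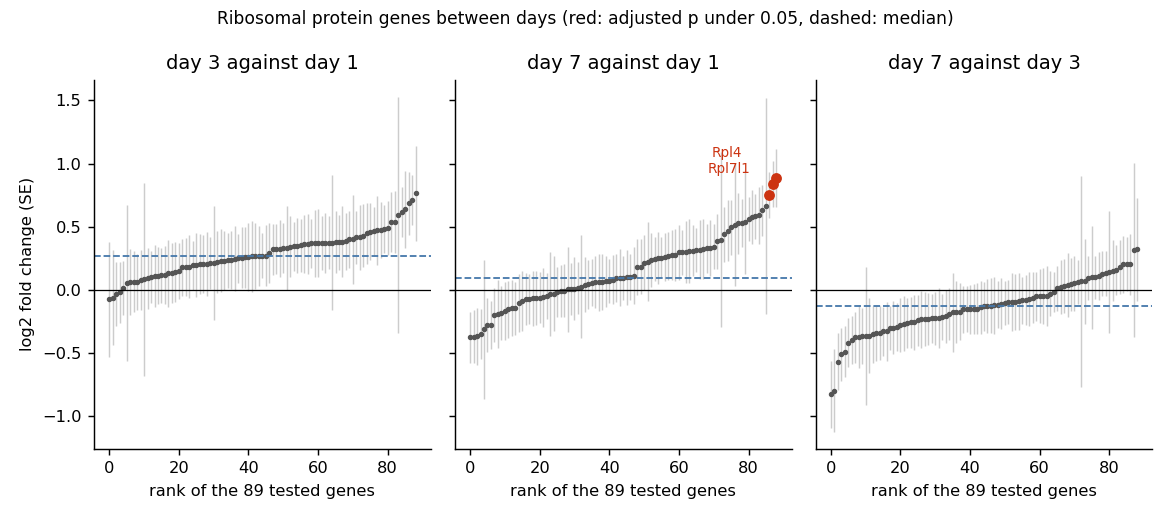
Log2 fold change with its standard error (vertical axis) of the 89 tested members, ranked within each comparison of days (horizontal axis). Dashed lines are medians (0.27, 0.10 and -0.13 from left to right), and the 3 members past an adjusted p of 0.05, Rpl4 and Rpl7l1 among them, stand at the upper end of the comparison of day 7 with day 1.

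Rps6 had 523.1, 658.5 and 611.5 CPM on day 1 and 862, 978, 763.6, 828 and 1039.5 CPM on day 7. Rpsa had 686.7, 951 and 882 CPM and 1358, 1339.9, 1145, 1027 and 1321 CPM on the same days. In both genes the day 7 cultures lay above all day 1 cultures, while the adjusted p without the file in the fit was 0.0632 for Rps6 (log2 fold change 0.58) and 0.0725 for Rpsa (0.56). Rplp0 had 775, 1166 and 862 CPM on day 1 and 1448, 1681, 1261, 1201 and 1647 CPM on day 7 (log2 fold change 0.63, adjusted p = 0.0788, edgeR), and with the replicate number as a block it passed the test (0.66, adjusted p = 0.0351). The short stalk proteins Rplp1 and Rplp2, which bind to Rplp0, had other values, with means of 264.6 ± 37.6 and 218.8 ± 19.4 CPM (SD, n = 3 and 5) for Rplp1 and 175.03 ± 39.2 and 135.5 ± 11.5 CPM for Rplp2, and neither passed the test. Members of one protein complex on the ribosome thus had fitted differences of opposite sign.

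**Figure D3:**
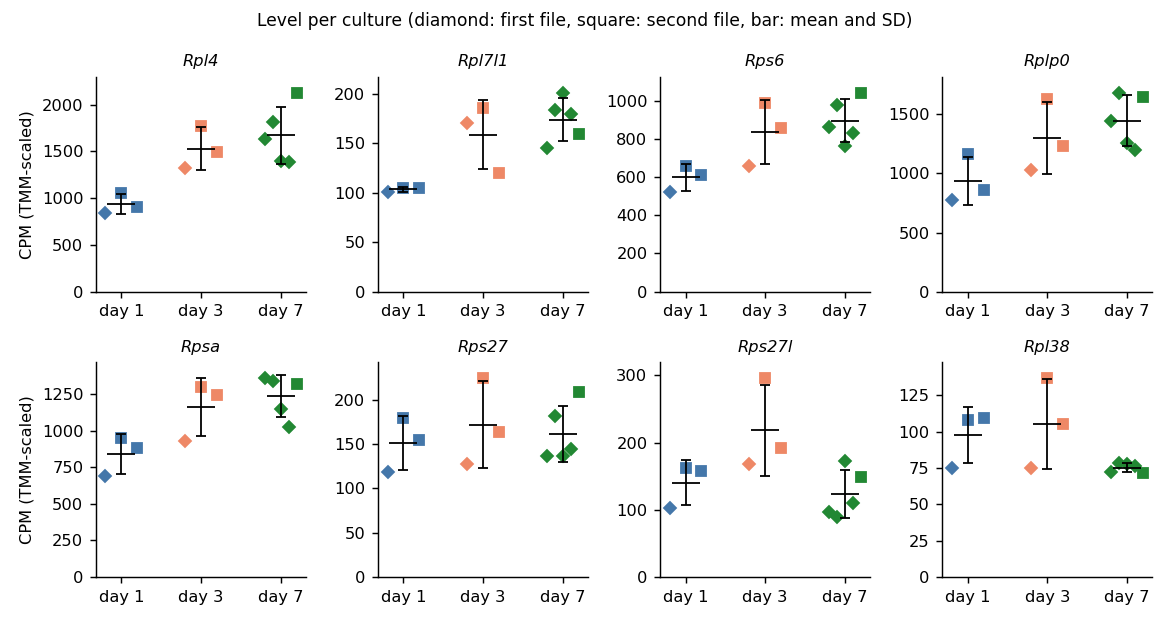
Level of 8 members in TMM-scaled CPM (vertical axes) in each culture by day (horizontal axes), with diamonds for the first file, squares for the second and bars for the mean and SD. For Rpl4 and Rpl7l1 no day 1 culture reaches a day 7 culture, while for Rps27, Rps27l and Rpl38 days 1 and 7 overlap.

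Day 7 was compared with day 3 to ask whether the level held as growth went on. No member passed the test, where 0.968% of all genes did. Of the members 65 were lower and 24 higher, with a median log2 fold change of -0.13 (all genes 0.01). At an unadjusted p under 0.05 there were 5 members of 89, all lower, a smaller share than the 11.8% of all genes, and DESeq2 and limma called none. No member had groups without overlap in either direction, against 2.99% of all genes higher and 5.14% lower. The direction depended on the file: with the file as a covariate over all cultures the median turned to 0.09. In the first file alone, with 1 day 3 culture, it was 0.26, and in the second file alone, with 1 day 7 culture, it was -0.15. Without day 3 culture 2, which had the largest share of reads on these genes among the day 3 cultures, the median was 0.05.

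The smallest p of this comparison belonged to Rps27l, Rpl36al and Rpl38. Rps27l, a p53-induced relative of Rps27 (chr9:66946086-66949516, plus strand, GRCm38), had 102.05, 162.5 and 157.2 CPM on day 1, 167.7, 295.7 and 192.6 CPM on day 3 and 96.2, 88.9, 173.1, 109.7 and 149.2 CPM on day 7. The day 3 cultures lay above all day 1 cultures, and day 7 culture 3 lay within the day 3 range. The log2 fold change from day 3 to day 7 was -0.82 (SE 0.26, adjusted p = 0.206, edgeR). Its partner Rps27 had 127.1, 224.1 and 163.5 CPM on day 3 and 136.4, 181.3, 136.4, 144.2 and 208.2 CPM on day 7, with the groups overlapping. Rpl36al, a relative of Rpl36a, had 126.4, 236.9 and 164.6 CPM and 106.3, 99.9, 144.4, 116.6 and 127.2 CPM (log2 fold change -0.57, adjusted p = 0.315). Rpl38, a large-subunit protein known for its part in the translation of Hox mRNAs, had 74.7, 136.6 and 104.9 CPM and 72.2, 78.3, 77.8, 76.2 and 71.4 CPM (log2 fold change -0.49, adjusted p = 0.348). The 5 day 7 values of Rpl38 lay within 7 CPM of each other, and day 3 culture 1 lay among them.

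The fitted differences were larger for longer and for more abundant members. Over the 83 protein-coding members that were tested, the Spearman correlation across genes of the log2 fold change with the length of the principal transcript was 0.49 when day 3 was set against day 1, 0.58 when day 7 was, and 0.44 from day 3 to day 7. With the level in place of the length it was 0.44, 0.62 and 0.48, and with the median transcript length of each gene 0.37, 0.51 and 0.43. Genes are not independent replicates, and these values are a description. Members shorter than 650 bases (37 genes, among them Rpl38, Rplp1, Rplp2, Rps27 and Rps27l) had a median of -0.06 for day 7 against day 1, and the 46 longer members, among them Rpl4 and Rpl7l1, had 0.27. Among 2288 other protein-coding genes of up to 2500 bases and a log2 CPM of at least 5, the correlation with length was 0.07, 0.23 and 0.29 in the same order. For day 7 against day 1 their medians were -0.16 for the shorter and 0.19 for the longer genes. A lower median of short genes on day 7 was therefore present outside the ribosomal set too, while for day 3 against day 1 the other genes had little relation with length. Longer members also had higher levels (Spearman 0.57), so that length and level cannot be told apart here. The part of cDNA length or RNA quality in these values was not tested.

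**Figure D4:**
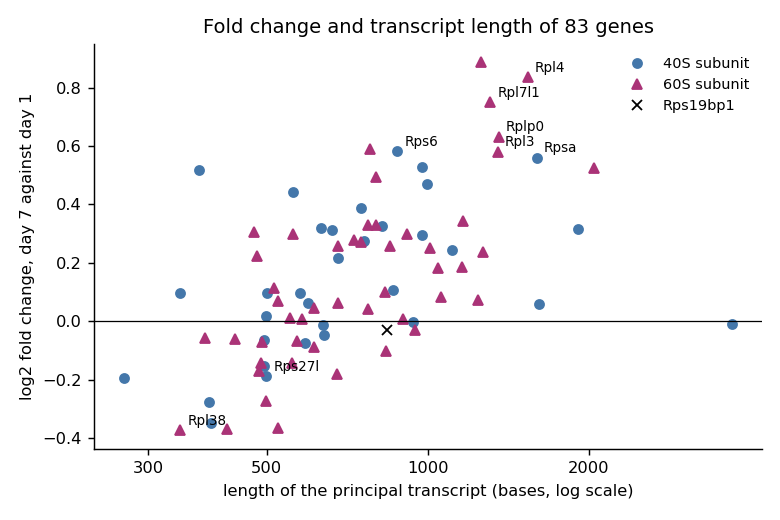
Log2 fold change of day 7 against day 1 (vertical axis) by length of the principal transcript in bases (horizontal axis, log scale) for the 83 protein-coding tested members, with circles for the small subunit, triangles for the large and a cross for Rps19bp1. Rpl4 and Rpl7l1 have transcripts of 1538 and 1310 bases and lie in the upper right, and Rpl38 lies near the short end.

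Several members have a paralog that can take their place in the ribosome. Per kilobase, Rps27 had 467.4 and Rps27l 308.7 CPM, Rpl36a 242.7 and Rpl36al 273.4 CPM, and Rpl22 220.2 and Rpl22l1 146.97 CPM. In these 3 pairs both genes were thus read at over 100 CPM per kb. Rpl7 had 605.6 CPM per kb against 115.03 for Rpl7l1. Rps4l, a pseudogene of Rps4x in the annotation, had a mean of 45.99 CPM against 575.5 CPM for Rps4x, without a length to compare by.

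Among the members with a known role outside the ribosome, Rpl5 had means of 333.2 ± 35.8 CPM on day 1 (SD, 3 cultures), 431.1 ± 81.97 on day 3 (3 cultures) and 479.8 ± 147.6 on day 7 (5 cultures), and Rpl11 had 196.7 ± 37.2, 229.5 ± 70.95 and 210.6 ± 32.2 CPM. Rps27a, made as a fusion with ubiquitin, had 287.4 ± 67.04, 311.6 ± 76.5 and 284.7 ± 26.2 CPM. None of these 3 genes passed the test on any day. Rpl13a and Rps18, often used as reference genes in PCR, had 283.6 ± 59.9, 386.6 ± 113.8 and 321.5 ± 50.1 CPM and 145.9 ± 15.1, 174.6 ± 47.2 and 198.2 ± 42.5 CPM. Neither passed the test, and the spread between cultures of 1 day reached 113.8 CPM for Rpl13a on day 3.

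From cell to cell the members varied together. Within a culture, with cells thinned to 200000 reads, the median Spearman correlation over pairs of 80 members was 0.21 to 0.52 in the 11 cultures, against 0.03 to 0.17 over pairs of 3173 other genes with a mean of at least 10 reads. Over all cultures 89.8% to 98.9% of the member pairs were positive. These cells share a library preparation and a sum of reads, and the correlation is a description. The other genes were not matched to the members by level, and the part of level in this contrast was not tested. The correlation was lower on day 7 (0.21 to 0.32) than in 2 of the 3 day 1 cultures (0.52 and 0.49, with 0.30 in culture 1) and in the day 3 cultures (0.37 to 0.47). The gene closest to the others was Rps19, with a mean correlation of 0.46 with the other members, followed by Rpl13 and Rpl41. Rpl7l1 was the least like them, with a mean of 0.06, although it was one of the 3 members that rose by day 7. It was also the one of the 6 starts shown that had no run of 8 pyrimidines, though the further start of Rps27l had none either. Such a run does not mark the genes closest to the others, however. Rpl13 had a run of 10 bases, but the longest run was 7 for Rps19 and 4 for Rpl41.

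The share per cell had an SD over cells of 0.477, 1.303 and 1.36 percentage points in the day 1 cultures, 0.847, 1.54 and 0.792 in the day 3 cultures and 0.476 to 0.725 in the day 7 cultures. The spread was thus largest in 3 early cultures, while day 1 culture 1 lay within the day 7 range. In 18 of the retained cells the members took over 6% of the reads, up to 12.7%, and 9 of these cells were in day 3 culture 2. The 18 cells had a median of 315374 reads, 5180.5 detected genes and 7.49% mitochondrial reads, against 803809, 6862 and 4.03% in the rest. The part of depth and cell quality in their high share was not tested. Within day 7 culture 5, which had the highest share of the day 7 cultures, cells with a higher share had more mitochondrial reads (Spearman 0.53 over 75 cells) and fewer detected genes (-0.52).

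Cycling cells were defined by reads on 3 or more of the division genes Tpx2, Ccnb2, Birc5, Cdk1, Top2a and Mki67 after thinning. They were compared with the other cells of the same culture to ask whether dividing cells carry more ribosomal protein mRNA. On day 7 the members took a smaller share of the reads in the cycling cells of 5 of 5 cultures, by 0.174 to 0.654 percentage points (the mean difference of cycling minus other cells was -0.375 ± 0.181, SD, n = 5). On day 3 it was smaller in 2 of 3 cultures (0.0465 ± 0.256, n = 3) and on day 1 in 1 of 3 (0.431 ± 0.766, n = 3). The day 1 cultures had only 9 to 13 cycling cells each, and day 7 culture 3, with the smallest difference of that day, had only 9 other cells beside 60 cycling cells. On day 7 the cycling cells had a read in more genes than the other cells in every culture, for example in a median of 6170.5 against 5175 genes in culture 2. Of the 9 cochlear epithelium markers 5 were called lower in cycling cells over all days (median log2 difference -0.52), as was the mesenchyme marker Dcn among 3 tested. Of all genes 14.2% were called in either direction. The part of these in the lower share was not tested.

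**Figure D5:**
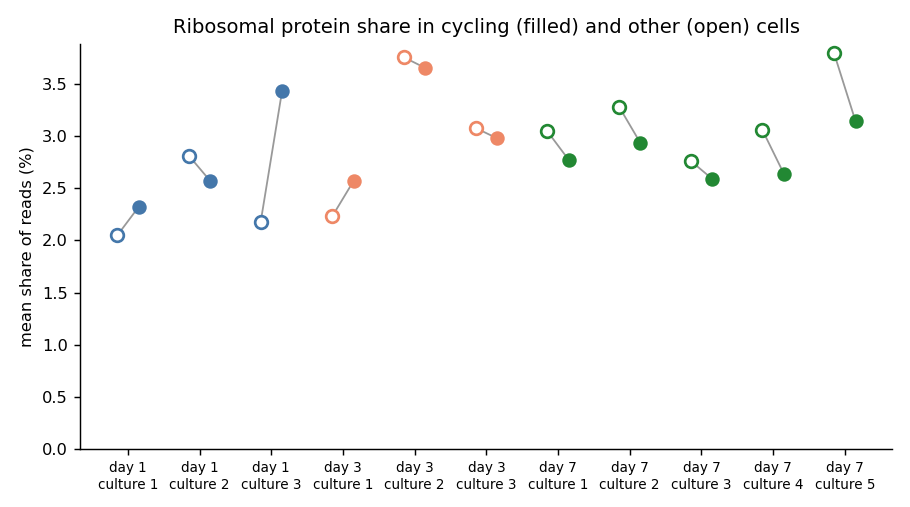
Mean share of reads on the members in percent (vertical axis) in the other cells (open circles) and the cycling cells (filled circles) of each culture (horizontal axis). All 5 lines of day 7 go down from other to cycling cells, while on days 1 and 3 they go both ways.

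In a fit with a class effect for each day, 20 of the 89 members were called lower in the cycling cells of day 7 and none higher, where 2.69% of all genes were called lower. The median log2 difference over the members was -0.24 (all genes 0.06), with -0.25 for the small and -0.24 for the large subunit. The 4 with the largest difference were Rpl22, Rpl10, Rps19 and Rps9. Rpl10, which joins the large subunit late in its assembly, had 787, 898, 675.3, 587.3 and 899.7 CPM in the cycling cells of the 5 cultures and 948, 1245, 871, 877 and 1228 CPM in the other cells. It was lower in each of the 5 pairs (log2 fold change -0.43, SE 0.08, adjusted p = 0.00513, edgeR). Rps19 had 587.8, 673.6, 598.1, 599.5 and 812 CPM in cycling and 855, 873, 834, 752.9 and 1077 CPM in other cells (log2 fold change -0.43, SE 0.08, adjusted p = 0.00533). The log2 difference was -0.41 for Rps9 (adjusted p = 0.00513) and -0.54 for Rpl22 (adjusted p = 0.0229). The count was 8 without day 7 culture 1, 9 without culture 2 and 11 without culture 5, the one from the second file, and the median stayed between -0.22 and -0.26.

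The class difference of day 7 was also set against that of the earlier days in the same fit. Against day 1 the median over members was -0.40 (all genes 0.18). No member passed the edgeR test of this difference, where 0.106% of all genes did, with 57 members lower and 1 higher at an unadjusted p under 0.05 (9.29% of all genes in either direction) and a smallest adjusted p of 0.125. Against day 3 the median was -0.25, with 20 members lower at an unadjusted p under 0.05 (3.94% of all genes in either direction). None of them and 0% of all genes passed. It is thus not shown that the class difference of single members differs between days. Within day 1 and within day 3 no member was called, with medians of 0.18 and 0.01. At an unadjusted p under 0.05, 12 members were higher and 1 lower on day 1, close to the 14.9% of all genes, and 5 were higher on day 3, a smaller share than the 13.3% of all genes.

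With 1 class effect over all days, 2 members were called, both lower in cycling cells, where 14.2% of the 13259 genes tested were called in either direction. Rpl3, a large-subunit protein near the peptidyl transferase center, had a log2 difference of -0.21 (SE 0.07, adjusted p = 0.0479, edgeR), with lower values in the cycling cells of all 5 day 7 cultures and all 3 day 3 cultures. Its values were 899.8, 1476 and 1144 CPM in the cycling and 999.98, 1632 and 1343 CPM in the other cells of the day 3 cultures. Rpl10 had -0.23 (SE 0.07, adjusted p = 0.0494). Both lie just inside the threshold: the count was 0 without any 1 of the 3 day 3 or the 5 day 7 cultures, 5 without day 1 culture 3 and 0 on thinned reads. Over the 89 members the median was -0.07 (all genes -0.03).

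Ribosome biogenesis genes code for nucleolar factors that process ribosomal RNA and join it with the proteins. Of 45 such genes 10 were called higher and none lower in cycling cells, with a median log2 difference of 0.27 (39 of 45 higher), where 14.2% of all genes were called in either direction. The smallest p belonged to Nolc1 (0.71, adjusted p = 0.000177), a chaperone of nucleolar particles, and Ncl (0.51, adjusted p = 0.000629), nucleolin. Of 15 genes of RNA polymerase I and its factors, which make the ribosomal RNA, 1 was called higher, Polr1e (0.85, adjusted p = 0.00262). Between days, 1 of the 45 biogenesis genes was called higher on day 7 than on day 1, where 3.55% of all genes were. It was Pes1, a factor for the large subunit, with 57.9, 58.7 and 46.6 CPM on day 1 and 105.6, 106.2, 115.9, 92.2 and 86.1 CPM on day 7. The medians for day 7 against day 1 were 0.19 for biogenesis and 0.43 for polymerase I, beside 0.10 for the ribosomal proteins, and no polymerase I gene was called. For day 3 against day 1 the medians were 0.31 and 0.25, with none called.

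Other mRNAs known for a TOP tract, mostly elongation factors and subunits of eIF3, numbered 17. In cycling cells, with the same background of 14.2%, 3 were called lower, Eef1a1 (-0.34, adjusted p = 0.0016), Eef2 (-0.38, adjusted p = 0.00219) and Eif3f, and 1 higher, Nap1l1, a histone chaperone (0.88). Eef1a1 brings transfer RNA to the ribosome and Eef2 moves the ribosome along the mRNA. On day 7 against day 1, 3 of the 17 were called higher, Hnrnpa1, Eif3e and Eef1a1 (3.55% of all genes), and 1 lower, the intermediate filament gene Vim. Hnrnpa1, a splicing factor, had 316.3, 306.1 and 310.9 CPM on day 1 and 550.2, 629.4, 586.6, 609.6 and 507.4 CPM on day 7, without overlap. Of the ribosome components outside the naming rule, Fau and Rack1 passed no test, with log2 fold changes of -0.13 and 0.36 for day 7 against day 1.

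Among 19 regulators of the mTOR and Myc pathways, 1 was called higher on day 7 than on day 1, where 3.55% of all genes were. Mycn, a Myc family factor, had 39.4, 22.1 and 48.7 CPM on day 1, 67.1, 50.2 and 64.95 CPM on day 3 and 111.7, 100.2, 72.5, 49.4 and 85.4 CPM on day 7 (log2 fold change 1.19, adjusted p = 0.035, edgeR). Its day 7 cultures lay above those of day 1, though culture 4 only narrowly. Eif4ebp1, which blocks cap-dependent translation until mTOR phosphorylates it, had 46.7, 52.8 and 51.98 CPM on day 1, 116.5, 172.6 and 112.97 CPM on day 3 and 47.03, 48.3, 60.6, 74.8 and 84.9 CPM on day 7. It fell from day 3 to day 7 (log2 fold change -1.09, adjusted p = 0.0435), while its difference between days 3 and 1 did not pass the test (adjusted p = 0.1002). In cycling cells Trp53 was called higher (0.63) and Mdm2, its inhibitor and the partner of Rpl5 and Rpl11, lower (-0.58). Kinase activity and translation were not measured, and mRNA levels do not stand for them.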

How the data were processed

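The series holds 768 single cells, 192 of day 1, 255 of day 3 and 321 of day 7. The authors summarised the SmartSeq2 reads of each cell into expected counts on genes, deposited in 2 files. Per the submitters' processing notes the tools were STAR 2.5.3a and RSEM 1.3.0 with the genome mm10 (GRCm38). The annotation release and the strand setting are not given in the sources used here, so reads of overlapping antisense genes cannot be told apart. The library type has no molecular identifiers.

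Cells with at least 50000 reads, at least 1500 genes and at most 20% mitochondrial reads were retained: 711 cells (182, 228 and 301 by day), of which 695 were thinned to 200000 reads for values per cell. No doublet caller was run on these hand-picked cells, and no pair of cells held identical values. Estimated counts were rounded and summed per culture (the replicate number of the label), giving 3, 3 and 5 sums, and edgeR 4.0.16 (R 4.3.3, TMM, filterByExpr, quasi-likelihood F-test over all days, Benjamini-Hochberg adjustment over all 17466 genes tested) compared days. Cycling cells were compared with other cells of the same culture, with the culture as a block (13259 genes tested). The tests were tried on simulated data. DESeq2 1.42.0 and limma 3.58.1 were alternatives. Comparisons of days share their cultures. Same-numbered cultures of days 1 and 7 deviated together (correlations of 0.148, 0.138 and 0.103 over genes) and are given with the replicate number as a block where this changes a call. Those of days 1 and 3 also did (0.0546 to 0.25), while those of days 3 and 7 (-0.0209 to 0.0593) did not do so in every pair. Cultures of unlike number ranged from -0.23 to 0.209, so that some of these deviated together as much. The number is thus not shown to be a pairing. Members are named where called (the 4 largest in each direction where more than 8 were), or the 3 of smallest p where none was, with the 3 highest and lowest per length, pairs of relatives and members of known role. In other lists the 2 called genes of smallest p are named. Results of some genes are not reported here. Further called list genes and members of the fit with the file were named after their values were seen. Coordinates are from GENCODE M21 (GRCm38), promoters from RefSeq (GRCm38.p6). With reads rather than molecules counted, the 3 to 5 cultures a day set the precision. The members and lists were chosen with earlier results of these data known.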

Additional observations from a re-analysis of the deposited data

Results flagged for a closer look

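In the 5 day 7 cultures, 1 value stood far from the rest. Rps27rt, the copy of Rps27 without introns, had 4.82 CPM in day 7 culture 2, against 3.41, 3.43, 3.75 and 3.62 CPM in the other 4 cultures. It was the only 1 of 35 values checked in this way that stood apart, and chance alone marks about 1 in 20 groups.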

How the results depend on the processing

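No member was called for day 3 against day 1 or for day 7 against day 3 under any alternative run. For day 7 against day 1 (3 members called), 5 were called without TMM, 1 without a filter on low counts, 9 with limma on the mean log2 value per cell, 10 with the file as covariate, 0 in the first file alone and 0 in the second, and 0 to 3 when 1 culture was left out. The median log2 fold change of the members ranged from 0.03 to 0.32 over the alternatives with all cultures of a file, and from -0.10 to 0.23 when 1 culture was left out. For day 7 against day 3 the median was 0.09 with the file as covariate and 0.26 in the first file alone, where Rpl38 was at 0.028. For day 7 against day 1, Rps27l turned to 0.20 with limma, 0.071 with the file as covariate and 0.16 in the first file alone, and Rps27 ranged from -0.11 to 0.25 when 1 culture was left out. For cycling against other cells (2 called), DESeq2 gave 4, a class of at least 2 division genes 1, thinned reads 0, day 3 cultures alone 0 and day 7 cultures alone 8. A class effect for each day gave 0 on day 1, 0 on day 3 and 20 on day 7. Leaving out 1 culture gave 0 to 5 for all days together and 8 to 19 within day 7. The share of reads was 2.11% on day 1 and 2.46% on day 3 in the first file alone and 3.69% on day 7 in the second, each from 1 culture. With a replicate block the count for day 7 against day 1 was 3, with a median of 0.14, Rpl7l1 lost its call and Rplp0 gained one, and no member was called between the other days. Rpl3l, Rpl10l and Rpl39l had no read or few reads and could not be tested in the main fit. The first file alone, a stricter filter on cells, sums with pseudogene copies, a class effect for each day and leaving out cultures within day 7 were chosen after seeing the data. The cause of these shifts was not tested.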

Other observations

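The ribosomal proteins of mitochondria, which are coded in the nucleus and build a separate ribosome, form a set to hold beside the cytosolic one. In cycling cells 11 of 78 were called higher and none lower, a share close to the 14.2% of all genes called in either direction, with a median log2 difference of 0.23 beside -0.07 for the cytosolic members. The smallest p belonged to Mrpl12 (0.51, adjusted p = 0.000279) and Mrpl18 (0.69, adjusted p = 0.000282), both of the large mitochondrial subunit. On day 7 against day 1, where 3.55% of all genes were called higher, 2 were called higher, Mrpl38 (0.72) and Mrps2 (0.79), with a median of 0.23. On day 3 against day 1 none was called, 77 of 78 were higher, and the median was 0.37.

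Translation initiation factors held 24 genes. In cycling cells 5 were called higher and 1 lower, where 14.2% of all genes were called. Eif5a (0.38, adjusted p = 0.00112) and Eif4h (0.46, adjusted p = 0.00448) were higher, and the helicase gene Eif4a2 was the lower one while its relative Eif4a1 was higher. On day 7 against day 1, Eif2s1 (0.64) and Eif4h (0.77) were called higher, beside the same 3.55% of all genes. All p here are from edgeR with Benjamini-Hochberg adjustment over all genes tested.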
